A study of Mus musculus with 20 samples.

Results

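The chemokines and their receptors were described in kidneys of Pkd2 mutant and control mice. The genes were taken from the count table by symbol: Ccl, Cxcl, Ccr or Cxcr followed by a number and at most 1 letter, together with Cx3cl1 and Cx3cr1. This gave 55 of 24411 genes, of which 24 were CC ligands, 14 were CXC or CX3C ligands and 17 were receptors. Chemokines are small secreted proteins that direct the movement of leukocytes along a gradient, and their family names describe the spacing of conserved cysteines near the amino terminus. They act on G protein-coupled receptors that leukocytes carry in different combinations, and most inflammatory ligands share receptors with relatives, whereas a few ligands have a single partner, such as Cx3cl1 with Cx3cr1 and Cxcl16 with Cxcr6. In the kidney, injured tubule cells, endothelium and resident macrophages are known sources, and monocytes, macrophages and T cells are the cells known to follow them.

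Kidney RNA of 20 inbred C57BL/6 mice was sequenced at P125 (P for postnatal day), and 4 groups of 5 mice had 1 library for each animal. The mutants, labelled Pkd2fl/fl; Pax8; Tet-O-Cre +, carried floxed Pkd2 alleles, a Pax8-driven reverse tetracycline transactivator and a Cre transgene under the TetO element. The controls, labelled Control, were Cre-negative animals, with the same floxed alleles and only 1 of the 2 transgenes, and like the mutants they received 50 mg/kg doxycycline daily from postnatal day 27 to 29. The Pax8 promoter is known to act in tubule and collecting duct epithelium, and Pkd2 was not measured separately in the leukocytes of these kidneys. Each library is named by its group and a number from 1 to 5 that only identifies the mouse. The mice came from 3 litters, here A (7 mice), B (9) and C (4), and each comparison of genotypes or sexes took litter as a covariate. Because RNA came from whole tissue, more cells of a type and more RNA per cell cannot be told apart for any gene below.

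Library totals ran from 11307741 to 19324073 counts. Pkd2 stood at 291 ± 30.9 CPM (counts scaled to library size and given per 1000000; mean ± SD, n = 5) in male controls and 119 ± 9.88 in male mutants, and at 257 ± 49.2 in female controls and 146 ± 33.5 in female mutants, with no overlap between genotypes within a sex. Its log2 fold change was −1.32 ± 0.08 (SE) in males, with an adjusted p of 2.18e-05, and −0.80 ± 0.18 (SE) in females, with one of 0.0276 (0.00909 without female mutant 4). CPM were scaled by the trimmed mean of M values (TMM) throughout. Female mutant 4 stood apart from the other 19 libraries: it had the lowest total, 14850 genes with a count against 16776 to 17724, 76 genes with exactly 1 count against 708 to 859, and 29 of the 55 chemokine genes with a count against 37 to 49. It was also the mutant with the lowest kidney weight relative to body weight (KBW), 0.836%. Many results that rest on the female mutants are therefore given with and without this library, and the others are given with it only. The tissue was checked by markers: summed proximal tubule markers lay between 6098 and 11901 CPM in every library.

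Promoters are shown for the neutrophil-attracting ligands Cxcl1, Cxcl2 and Cxcl3, which lie in 1 locus on chromosome 5, for the interferon-inducible ligand Cxcl10, for the CC ligands Ccl9 and Ccl20, and for Cxcl12, whose level fell. The first 6 hold a match to an NF-kB site and Cxcl12 holds none, and NF-kB is the factor best known for switching on inflammatory chemokine genes. The promoters shown do not represent the genes that rose in the joint comparison below, where only 4 of 11 with a promoter entry hold a match. Cxcl2, Cxcl3 and Ccl20 had too few counts for that comparison. Sequences are from RefSeq (GRCm38.p6), read 5′ to 3′ on the strand of the gene up to the base before its start, and stop where the GENCODE M21 model of the gene begins. Capitals mark matches to an NF-kB site (10 letters), to the AP-1 site TGANTCA or to the interferon response element GAAANNGAAA.
Cxcl1 (chr5:90891135-90891240, plus strand, 106 bases): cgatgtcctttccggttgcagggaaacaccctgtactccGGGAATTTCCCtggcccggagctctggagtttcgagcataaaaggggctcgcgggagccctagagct
Cxcl2 (chr5:90903789-90903870, plus strand, 82 bases): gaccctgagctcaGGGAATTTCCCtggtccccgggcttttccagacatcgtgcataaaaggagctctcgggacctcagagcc
Cxcl3 (chr5:90785991-90786100, plus strand, 110 bases): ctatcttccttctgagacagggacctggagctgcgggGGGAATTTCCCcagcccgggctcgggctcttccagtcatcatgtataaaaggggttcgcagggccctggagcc
Cxcl10 (chr5:92348890-92349109, minus strand, 220 bases): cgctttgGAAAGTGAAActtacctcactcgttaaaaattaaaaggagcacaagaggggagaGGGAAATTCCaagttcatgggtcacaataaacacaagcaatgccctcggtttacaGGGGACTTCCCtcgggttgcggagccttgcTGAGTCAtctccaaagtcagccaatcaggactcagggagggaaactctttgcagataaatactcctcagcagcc
Ccl9 (chr11:83578637-83578746, minus strand, 110 bases): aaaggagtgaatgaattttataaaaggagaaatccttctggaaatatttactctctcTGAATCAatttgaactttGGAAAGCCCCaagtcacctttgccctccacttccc
Ccl20 (chr1:83116656-83116765, plus strand, 110 bases): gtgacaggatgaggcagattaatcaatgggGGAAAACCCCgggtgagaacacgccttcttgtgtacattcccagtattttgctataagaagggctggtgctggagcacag
Cxcl12 (chr6:117168425-117168534, plus strand, 110 bases): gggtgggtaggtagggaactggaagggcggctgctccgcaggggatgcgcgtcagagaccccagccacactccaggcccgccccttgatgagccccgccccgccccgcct

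In Cxcl1, Cxcl2 and Cxcl3 the capitals spell the same 11 letters, GGGAATTTCCC, in which 2 matches overlap by all but their outer letters. The Cxcl10 stretch holds an interferon response element, 3 NF-kB matches of which 2 overlap, and an AP-1 site. Over the 250 bases before the start, searched on both strands, an NF-kB match was present in 10 of the 39 chemokine genes with a promoter entry (25.6%) and in 7.25% of 32851 promoters of all genes. AP-1 sites were in 6 of 39 (15.4%) and 6.75%, and interferon response elements in 3 of 39 (7.69%) and 2.98%. TATAAA on the strand of the gene was in 10 of 39 (25.6%) and 7.59%. The 39 genes had 46 promoters, and a gene was counted if any of its promoters matched. The shares over all genes are of single promoters, so the 2 kinds of share are not fully alike. Of the 11 genes with an entry that rose in the joint comparison below, 4 held an NF-kB match: Cxcl1, Cxcl10, Ccl9 and Ccr1. These matches are a description of the letters and were not tested against the expression values.

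Most chemokine genes with enough counts were higher in mutant kidneys. When all 10 mutants were set against all 10 controls (the joint comparison), 24 of the 55 genes passed the filter on low counts and 16 were called at an adjusted p under 0.01 (edgeR quasi-likelihood test, adjusted over all genes tested), 15 of them higher and 1, Cxcl12, lower in mutants. Of all 14191 genes tested, 15.9% were called and 10% were called higher. The median log2 fold change was 1.05 over the 24 genes and −0.01 over all genes tested. A gene could pass the filter on its counts in mutants alone, so these shares describe the genes that passed and not the whole family. By class, 5 of 9 tested CC ligands rose, 5 of 7 tested CXC and CX3C ligands rose and 1 fell, and 5 of 8 tested receptors rose. Every mutant lay above every control for 3 of the 24 genes, Cxcl1, Ccl2 and Cxcl16, against 0.994% of all genes tested. Without female mutant 4, 25 were tested and 18 called, with Cxcl14 and Ccl22 added. Over all genes, 2994 were called without this library and 2252 with it.

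Within males, 9 of 23 tested genes were called, 8 higher and 1 lower, against 8.46% of all genes tested called and 5.25% called higher. Every male mutant lay above every male control for 10 of the 23, against 8.81% of all genes. Within females, 1 of 31 tested genes was called (Cxcl10), against 0.637% called and 0.457% called higher, and every female mutant lay above every female control for 6 of the 31, against 3.79%. Without female mutant 4 the female count was 16 of 34, while the number called over all genes went from 92 to 866. The male count lay between 3 (without male control 4) and 16 (without male mutant 2) and was 5 without male mutant 3, and the female count was 0 without any 1 of the other mice except female control 5, without which it was 1 (Cxcl5). Of the 55 genes, 31 were not tested in the joint comparison: 6 had no count in any library and 25 had too few. Of the 25, 7 were tested within females and not called with all females: Ccl4, Ccl11, Ccl12, Ccl22, Ccr7, Ccr10 and Cxcl11.

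**Figure D1:**
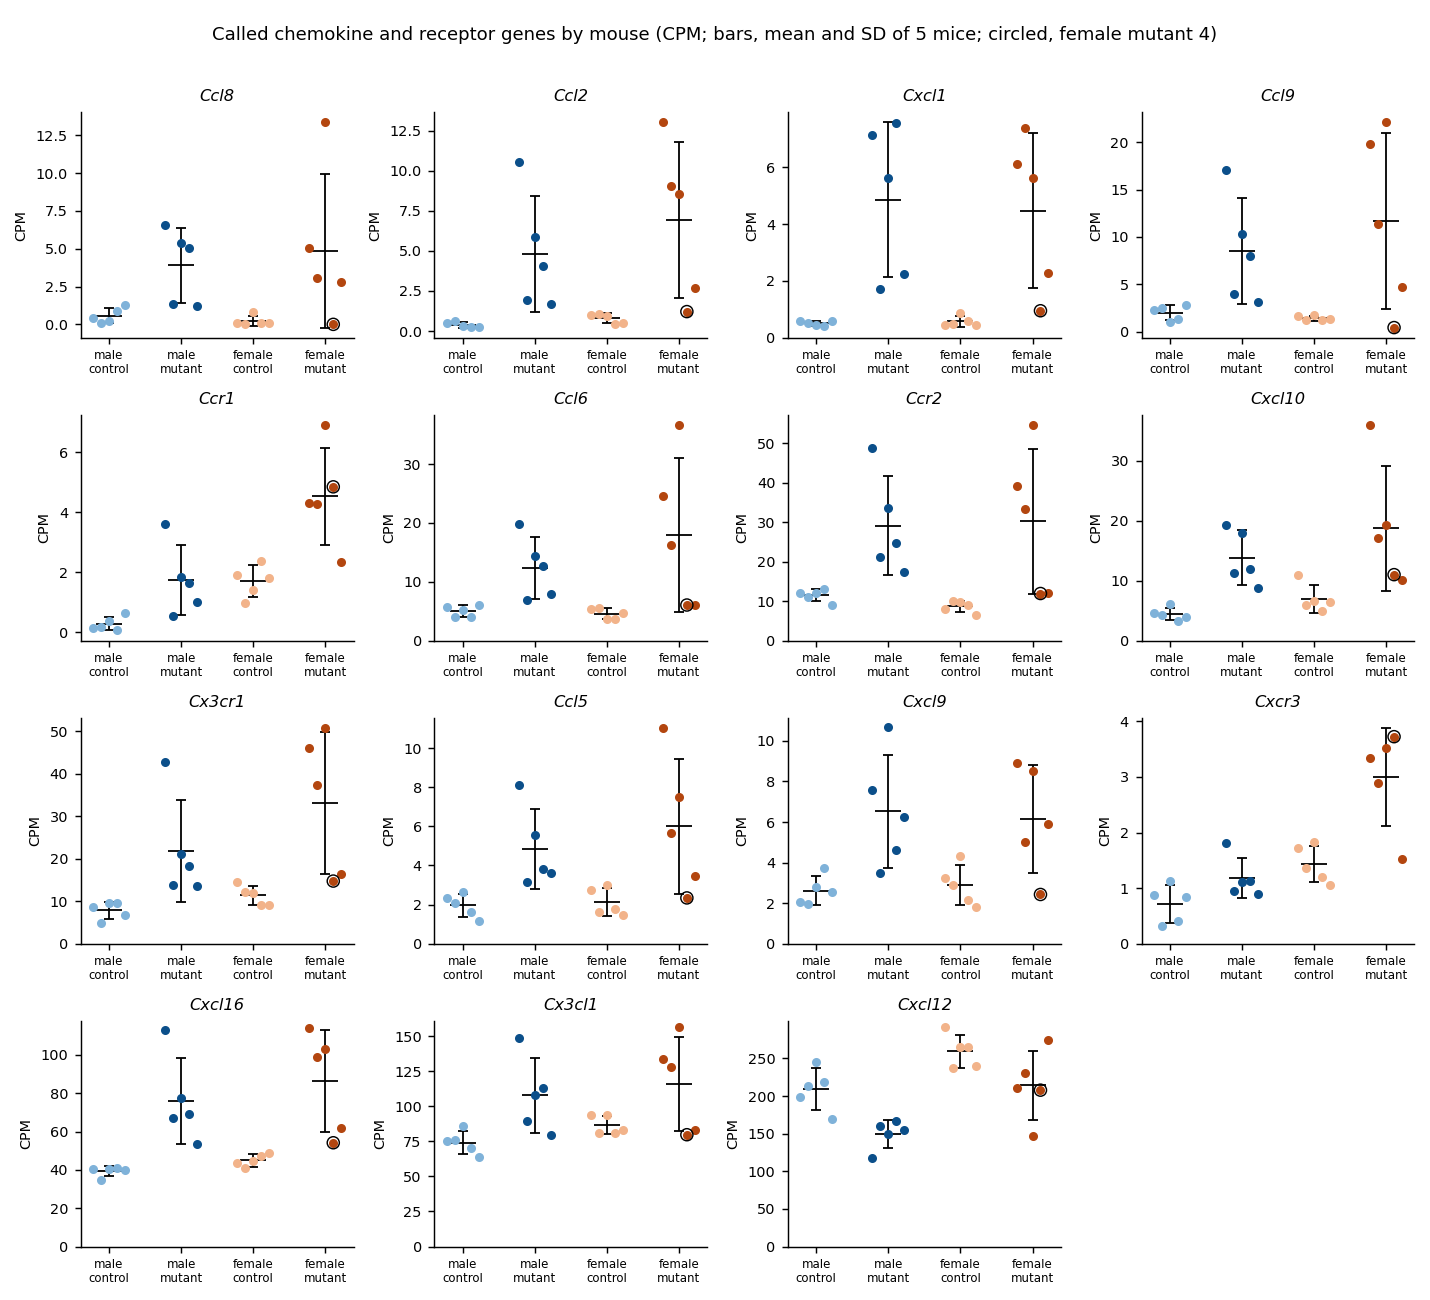
Level in CPM (y axis, linear from 0) of 15 of the 16 genes called in the joint comparison, 1 point per mouse in each of the 4 groups, with the mean and SD of 5 mice as bars and female mutant 4 circled. Mutants are higher in 14 panels and lower in that of Cxcl12, and in most panels female mutants 4 and 5 and male mutants 2 and 5 lie nearest to the controls.

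Among the CXC ligands that attract neutrophils through Cxcr2, Cxcl1 was the member with enough counts. Male controls 1 to 5 had 0.585, 0.508, 0.450, 0.405 and 0.578 CPM of Cxcl1 and male mutants 1 to 5 had 7.13, 1.71, 5.64, 7.54 and 2.25. Female controls had 0.461, 0.491, 0.886, 0.596 and 0.455 CPM and female mutants 6.13, 7.39, 5.62, 0.953 and 2.29. All 10 mutants lay above all 10 controls, and the smallest mutant value, in female mutant 4, exceeded the highest control value, in female control 3, only narrowly. The log2 fold change was 2.98 ± 0.35 (SE), adjusted p = 1.33e-05, a 7.91-fold difference; it was 3.05 in males and 2.94 in females, where adjusted p was 0.013 with and 0.000397 without female mutant 4.

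Its relatives Cxcl2 and Cxcl5, which act on the same receptor, were nearly absent from controls and failed the filter. Counts of Cxcl2 were 1, 0, 1, 1 and 1 in male controls and 53, 21, 50, 41 and 9 in male mutants. In females, Cxcl2 had 0, 0, 0, 0 and 0 counts in controls and 52, 52, 59, 0 and 19 in mutants. Thus 9 of 10 mutants had at least 9 counts of Cxcl2, no control had more than 1, and female mutant 4 had none. Counts of Cxcl5 were 1, 0, 0, 0 and 0 in male controls and 53, 16, 24, 28 and 11 in male mutants. In females, Cxcl5 had 0, 0, 1, 0 and 0 counts in controls and 87, 28, 87, 21 and 10 in mutants. Every mutant, female mutant 4 included, had at least 10 counts of Cxcl5 and every control at most 1. Summed over 10 mice a side and scaled by library size, the ratio of mutant to control counts was 81.5 for Cxcl2 (356 against 4 counts; 95% counting interval 31.6 to 301). For Cxcl5 the sums were 365 against 2, a ratio of 167 (95% counting interval 46.0 to 1386). For Cxcl3 the sums were 28 and 4. These intervals cover counting error only and not the spread between mice. Cxcl15, a lung-type relative, had 8 and 3 counts.

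The interferon-inducible ligands Cxcl9 and Cxcl10, which attract activated T cells through Cxcr3, both rose. Cxcl10 stood at 4.68, 4.25, 6.08, 3.24 and 3.98 CPM in male controls and 19.3, 11.2, 17.9, 12.0 and 8.84 in male mutants. In females it stood at 10.9, 5.94, 6.56, 4.88 and 6.52 CPM in controls and 35.9, 17.1, 19.3, 11.001 and 10.1 in mutants. All male mutants lay above all male controls, whereas in females the highest control, female control 1, lay above female mutant 5 and just below female mutant 4. In all mice the log2 fold change was 1.495 ± 0.16 (SE), adjusted p = 5.49e-06, the smallest adjusted p of any chemokine gene, while males gave 1.65 ± 0.22 (SE), adjusted p = 0.000957, and females 1.37 ± 0.21 (SE), adjusted p = 0.00912. The female call was lost without any 1 of 9 females (adjusted p up to 0.0487 without female mutant 1) and held without female mutant 4 (0.00161). Exons of Cxcl10 and of Art3 on the opposite strand overlap, and whether counting used the strand was not given in the sources used here. Art3 did not pass the test (joint log2 fold change −0.09, adjusted p = 0.741).

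Cxcl9 had 2.05, 1.97, 2.78, 3.73 and 2.57 CPM in male controls and 7.58, 3.48, 10.7, 4.63 and 6.25 in male mutants. Female controls had 3.23, 2.89, 4.31, 2.14 and 1.82 CPM of Cxcl9 and female mutants 8.92, 4.99, 8.54, 2.43 and 5.88. Both sexes overlapped, through male mutant 2 and female mutant 4 at the low end of the mutants. Jointly, the log2 fold change was 1.15 ± 0.23 (SE), adjusted p = 0.00115, and neither sex alone passed (males 0.0118 and females 0.096, adjusted p). In the edgeR fit with no filter on low counts, the female adjusted p was 0.0932 with and 0.00372 without female mutant 4. Cxcl11, the other Cxcr3 ligand of this locus, had 107 counts over all mutants and 73 over all controls, a ratio of 1.34 (95% counting interval 0.988 to 1.83).

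Cxcl16, made as a membrane-bound ligand of Cxcr6, was among the members with the highest level per length. It stood at 40.6, 34.9, 40.6, 41.2 and 39.7 CPM in male controls and 113, 67.2, 77.4, 69.0 and 53.6 in male mutants. Among females it stood at 43.5, 40.7, 44.4, 47.3 and 49.0 CPM in controls and 114, 99.0, 103, 54.1 and 61.8 in mutants. The controls were tightly grouped and all mutants lay above all controls, the lowest being male mutant 5 and female mutant 4. The joint log2 fold change was 0.93 ± 0.13 (SE), adjusted p = 5.51e-05, while males gave 0.94 (adjusted p = 0.00259) and females gave 0.94 (adjusted p = 0.0247, 0.00248 without female mutant 4). Its exons overlap those of Zmynd15 on the opposite strand, which had 8.44 CPM in controls and 11.5 in mutants (joint log2 fold change 0.40, adjusted p = 0.0197, and 0.00595 without female mutant 4).

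Cx3cl1, or fractalkine, which tethers and attracts cells with Cx3cr1, rose by less. Male controls had 75.1, 75.7, 85.8, 70.1 and 63.5 CPM and male mutants 148, 89.6, 108, 113 and 79.6. Female controls had 94.1, 81.2, 93.6, 80.9 and 83.3 CPM and female mutants 134, 128, 156, 79.7 and 82.9. The groups overlapped in both sexes, with male mutant 5 and female mutant 5 within the range of their controls and female mutant 4 below it. Jointly, the log2 fold change was 0.48 ± 0.11 (SE), adjusted p = 0.00335, and the call was lost without male mutant 1 (adjusted p = 0.0148) or male control 4 (0.0123). In males it was 0.55 ± 0.12 (SE), adjusted p = 0.00993, a call lost in most alternatives, and in females 0.43 ± 0.18 (SE), adjusted p = 0.197.

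Cxcl12, the ligand of Cxcr4 that is made constitutively by stromal and endothelial cells, was the only member called lower in mutants in the joint comparison and in males. It stood at 198, 213, 246, 219 and 170.0 CPM in male controls and 118, 160.1, 149, 167 and 154 in male mutants. In females it stood at 291, 237, 265, 265 and 240.2 CPM in controls and 210.2, 230.3, 147, 208 and 275 in mutants. Every male mutant lay below every male control, and in females the values overlapped, with female mutant 5 the next highest value after female control 1. In all mice the log2 fold change was −0.39 ± 0.10 (SE), adjusted p = 0.00585, while males gave −0.50 ± 0.11 (SE), adjusted p = 0.00818, and females −0.27 ± 0.14 (SE), adjusted p = 0.287. The joint call was lost without any 1 of 8 mice (male controls 2 and 4, male mutants 1 and 3, female controls 1, 3 and 4 and female mutant 1), with adjusted p between 0.0101 and 0.0189 and the direction kept.

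Cxcl14, an epithelial ligand whose receptor is disputed, was not called between genotypes. Male controls had 26.9, 22.4, 23.6, 20.6 and 15.7 CPM and male mutants 49.2, 23.2, 33.8, 24.3 and 19.0. Female controls had 30.9, 27.98, 33.4, 31.8 and 36.3 CPM and female mutants 38.2, 56.9, 58.8, 25.1 and 35.8. The joint log2 fold change was 0.46 ± 0.15 (SE), adjusted p = 0.0303, and without female mutant 4 it was 0.53 with an adjusted p of 0.00373. Of the remaining CXC ligands, Cxcl13, which attracts B cells, had 129 counts over mutants and 70 over controls, of which 34 came from 1 male control, and Cxcl17, a mucosal ligand, had 98 over mutants and 6 over controls.

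**Figure D2:**
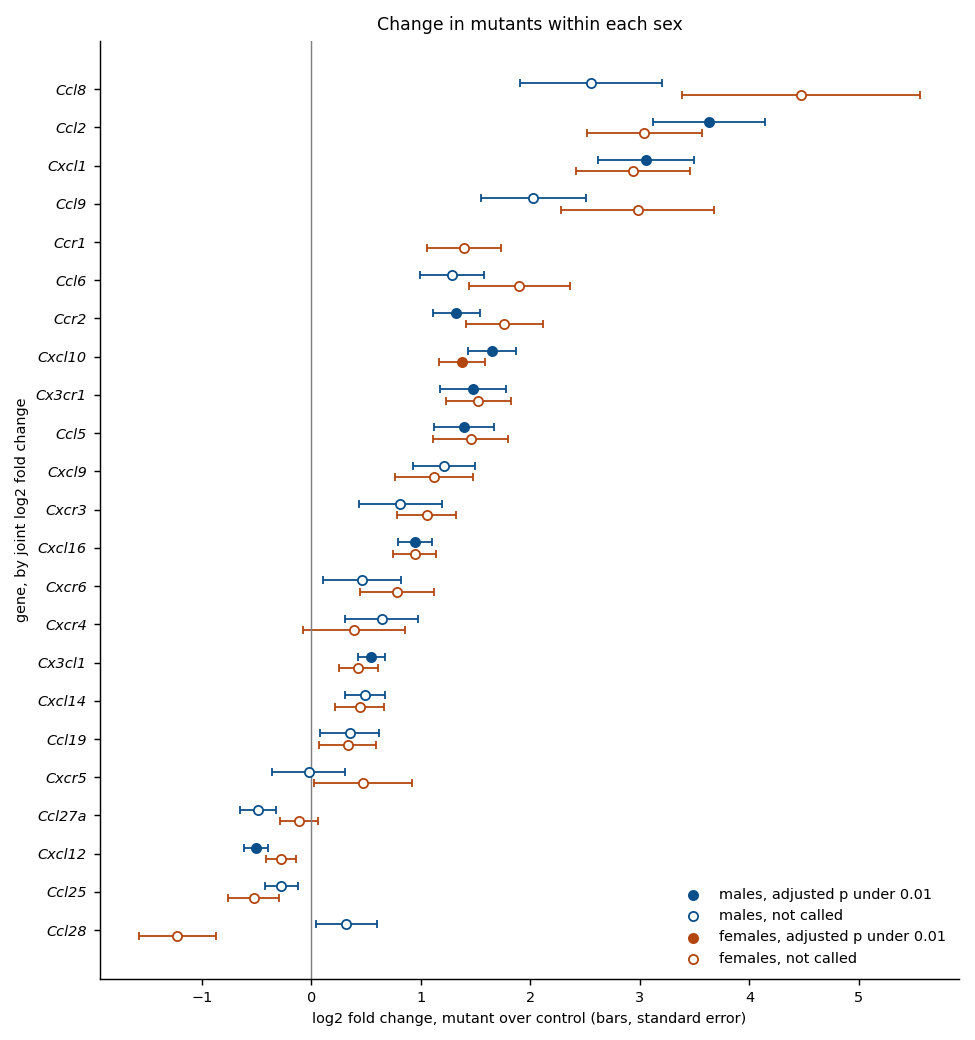
Log2 fold change of mutants over controls with its standard error (x axis) for 23 of the 24 genes tested in the joint comparison (y axis, ordered by the joint value), males in blue and females in orange, filled where called at an adjusted p under 0.01. The 2 sexes lie within each other's errors for most genes, Ccr1 was not tested in males, and Ccl28 lies at 0.32 in males and −1.22 in females.

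Among the ligands with enough counts for the joint test, Ccl8 and Ccl2, both known to attract monocytes, had the largest log2 fold changes. Ccl2 (MCP-1) had 0.512, 0.634, 0.300, 0.243 and 0.257 CPM in male controls and 10.5, 1.91, 5.90, 4.03 and 1.69 in male mutants. Female controls had 0.988, 1.09, 0.945, 0.417 and 0.531 CPM of Ccl2 and female mutants 13.0, 9.08, 8.59, 1.21 and 2.71. Every mutant lay above every control, and the mutants themselves ranged from 1.21 CPM in female mutant 4 to 13.0 in female mutant 1. In all mice the log2 fold change was 3.27 ± 0.39 (SE), adjusted p = 1.34e-05, a 9.65-fold difference, while males gave 3.63 ± 0.51 (SE), adjusted p = 0.0012, and females 3.04 ± 0.53 (SE), adjusted p = 0.0126 (0.000397 without female mutant 4).

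Ccl8 (MCP-2) had 0.438, 0.0635, 0.225, 0.891 and 1.28 CPM in male controls and 6.56, 1.37, 5.38, 5.03 and 1.18 in male mutants. Among females it had 0.0659, 0.0545, 0.827, 0.119 and 0.0759 CPM in controls and 5.07, 3.07, 13.3, 0 and 2.82 in mutants. Both sexes overlapped, since male control 5 lay above male mutant 5 and female mutant 4 had no count. Jointly, the log2 fold change was 3.46 ± 0.69 (SE), adjusted p = 0.00117, the largest of the tested members, and neither sex alone passed (2.56 in males and 4.47 in females). In the edgeR fit with no filter on low counts, the female adjusted p was 0.0231 with and 0.000301 without female mutant 4. Ccl7 (MCP-3) and Ccl12 (MCP-5) lie beside Ccl2 and Ccl8 on chromosome 11 and had too few counts for the joint test. Ccl7 had 1, 0, 3, 1 and 0 counts in male controls and 42, 8, 13, 23 and 5 in male mutants. Its counts were 1, 0, 3, 0 and 1 in female controls and 119, 34, 50, 5 and 8 in female mutants. All mutants had at least 5 counts of Ccl7 and no control more than 3, and the ratio of the sums (307 against 10) was 28.1 (95% counting interval 15.1 to 59.2). Ccl12 summed to 434 counts in mutants and 44 in controls, a ratio of 9.04 (95% counting interval 6.62 to 12.6), with no count in female mutant 4.

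Ccl5 (RANTES), a product of T and NK cells and of stimulated epithelium that binds Ccr1, also rose. It stood at 2.34, 2.09, 2.63, 1.62 and 1.16 CPM in male controls and 8.09, 3.14, 5.57, 3.84 and 3.60 in male mutants. In females it stood at 2.77, 1.64, 3.01, 1.79 and 1.44 CPM in controls and 11.04, 5.65, 7.51, 2.34 and 3.47 in mutants. Males did not overlap, and in females only mutant 4 lay within the range of the controls. The joint log2 fold change was 1.42 ± 0.22 (SE), adjusted p = 0.000127; in males the call (1.40 ± 0.27 (SE), adjusted p = 0.00535) was lost in 9 of 18 alternatives, and in females it was 1.45 ± 0.34 (SE), adjusted p = 0.0342 (0.00236 without female mutant 4).

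Ccl6 and Ccl9, myeloid ligands of Ccr1 that mice make and humans do not, rose together. Ccl6 had 5.77, 4.06, 5.18, 3.97 and 6.10 CPM in male controls and 19.8, 6.90, 14.4, 12.6 and 7.99 in male mutants. Female controls had 5.34, 5.62, 3.66, 3.75 and 4.63 CPM of Ccl6 and female mutants 24.6, 16.3, 36.6, 6.06 and 6.06. No mutant lay within the range of the controls of its sex, although male mutant 2 and female mutants 4 and 5 exceeded it by little. Ccl9 had 2.34, 2.47, 1.05, 1.30 and 2.82 CPM in male controls and 17.1, 4.03, 10.4, 7.94 and 3.10 in male mutants. Female controls had 1.65, 1.25, 1.71, 1.19 and 1.29 CPM of Ccl9 and female mutants 19.8, 11.4, 22.1, 0.433 and 4.76. Males did not overlap, and female mutant 4 lay below every female control. Joint log2 fold changes were 1.59 ± 0.30 (SE), adjusted p = 0.000673 for Ccl6 and 2.52 ± 0.47 (SE), adjusted p = 0.000645 for Ccl9. Neither was called in males (adjusted p = 0.0106 and 0.0129), and in females both were called without female mutant 4 (0.00592 and 0.000627).

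Of the 9 CC ligands tested, Ccl28, Ccl27a, Ccl25 and Ccl19 were not called in the joint comparison. Ccl28, a mucosal epithelial ligand of Ccr3 and Ccr10, had 18.6, 17.1, 18.8, 16.9 and 28.8 CPM in male controls and 20.2, 23.6, 19.5, 54.2 and 20.7 in male mutants. Female controls had 75.5, 17.9, 34.5, 47.6 and 20.3 CPM of Ccl28 and female mutants 14.9, 29.04, 18.5, 11.3 and 6.29. Male mutant 4 stood far from the other male mutants at 54.2 CPM. The female controls were widely spread, from 17.9 to 75.5 CPM, and the groups overlapped in both sexes. The log2 fold change was 0.32 ± 0.28 (SE) in males and −1.22 ± 0.35 (SE) in females (adjusted p = 0.0711), and the difference between the sexes was 1.58 ± 0.50 (SE) with an unadjusted p of 0.00568 and an adjusted p of 0.898. Ccl27a, a ligand of Ccr10, had 6.58, 8.44, 9.83, 8.91 and 7.58 CPM in male controls and 5.54, 7.17, 4.52, 5.62 and 6.30 in male mutants. Female controls had 7.77, 6.82, 8.15, 9.59 and 9.03 CPM of Ccl27a and female mutants 7.40, 8.12, 5.83, 6.32 and 10.7. Its groups overlapped in both sexes, and the joint log2 fold change was −0.30 ± 0.12 (SE), adjusted p = 0.0762. Ccl25, a ligand of Ccr9, had a joint value of −0.41 ± 0.14 (SE), adjusted p = 0.0342, and Ccl19, a ligand of Ccr7, one of 0.33 ± 0.18 (SE), adjusted p = 0.185. Exons of Ccl27a overlap Il11ra1, and those of Ccl25 overlap Elavl1, on the opposite strand. Ccl27b, a close copy of Ccl27a, had no count, and neither had Ccl21a, Ccl21b and Ccl21c, which are copies of each other. How reads shared between such copies were counted is not known, so values of these genes are uncertain.

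Monocyte and macrophage receptors rose alongside these ligands. Ccr2, the receptor of Ccl2, Ccl7 and Ccl12 on inflammatory monocytes, stood at 12.0, 11.2, 12.2, 13.1 and 9.12 CPM in male controls and 48.8, 21.2, 33.6, 24.7 and 17.3 in male mutants. In females it stood at 8.10, 10.1, 9.69, 9.05 and 6.45 CPM in controls and 39.2, 33.3, 54.7, 12.0 and 12.1 in mutants. Neither sex overlapped, although female mutants 4 and 5 were close to the highest female control. Jointly, the log2 fold change was 1.53 ± 0.22 (SE), adjusted p = 7.61e-05, while males gave 1.32 (adjusted p = 0.00226) and females gave 1.76 (adjusted p = 0.021, 0.00123 without female mutant 4).

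Cx3cr1, carried by resident macrophages and patrolling monocytes, had 8.62, 4.89, 9.45, 9.64 and 6.68 CPM in male controls and 42.7, 13.9, 21.2, 18.2 and 13.5 in male mutants. Female controls had 14.6, 12.2, 11.8, 9.11 and 9.10 CPM of Cx3cr1 and female mutants 46.1, 37.3, 50.8, 14.7 and 16.5. Within each sex all mutants lay above all controls, female mutant 4 narrowly. In all mice the log2 fold change was 1.49 ± 0.22 (SE), adjusted p = 0.000103, the receptor of Cx3cl1 thus changing by 2.81-fold where the ligand changed by 1.39-fold; the difference between the genes was not tested. In males the call (adjusted p = 0.00692) was lost in 9 of 18 alternatives. An overlap with the non-coding Gm33858 on the opposite strand is annotated, and this gene is not analysed here.

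Ccr1, the receptor of Ccl5, Ccl6 and Ccl9 on myeloid cells, had 0.146, 0.190, 0.375, 0.0810 and 0.642 CPM in male controls and 3.62, 0.546, 1.84, 1.65 and 1.01 in male mutants. Female controls had 1.91, 0.982, 1.42, 2.38 and 1.82 CPM of Ccr1 and female mutants 4.31, 4.27, 6.90, 4.85 and 2.35. Male mutant 2 and female mutant 5 lay within the range of their controls, and here female mutant 4 was among the high values. Its joint log2 fold change was 1.80 ± 0.36 (SE), adjusted p = 0.00117.

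The T cell receptor of Cxcl9 and Cxcl10, Cxcr3, had 0.877, 0.317, 1.13, 0.405 and 0.835 CPM in male controls and 1.81, 0.956, 1.11, 1.12 and 0.901 in male mutants. Female controls had 1.71, 1.36, 1.83, 1.19 and 1.06 CPM of Cxcr3 and female mutants 3.34, 2.89, 3.53, 3.72 and 1.53. Both sexes overlapped, and the joint log2 fold change was 0.95 ± 0.21 (SE), adjusted p = 0.00303, a call lost without male mutant 1 (0.0106). Cxcr6, the receptor of Cxcl16, was not called: male controls had 2.12, 0.825, 0.975, 1.62 and 1.16 CPM and male mutants 2.999, 1.09, 2.49, 1.65 and 1.24. Female controls had 1.84, 0.982, 3.37, 1.91 and 1.21 CPM of Cxcr6 and female mutants 3.19, 3.73, 4.45, 3.21 and 1.53. The groups overlapped, with a joint log2 fold change of 0.63 ± 0.25 (SE), adjusted p = 0.0678. Cxcr4, the receptor of Cxcl12, had 3.95, 4.25, 2.48, 1.70 and 2.44 CPM in male controls and 5.32, 2.94, 5.11, 8.27 and 2.98 in male mutants. Female controls had 2.64, 3.38, 5.61, 3.63 and 5.69 CPM of Cxcr4 and female mutants 5.83, 6.85, 6.90, 0.693 and 5.88. Female mutant 4 lay far below the rest, and the joint log2 fold change was 0.49 ± 0.30 (SE), adjusted p = 0.249 with this library and 0.65, adjusted p = 0.0218, without it. Cxcr5, the B cell receptor of Cxcl13, had a joint value of 0.23 ± 0.28 (SE), adjusted p = 0.588, and its exons overlap Bcl9l on the opposite strand. Cxcr2, the neutrophil receptor of Cxcl1, Cxcl2 and Cxcl5, had 62 counts over the mutants and 27 over the controls, a ratio of 2.10 (95% counting interval 1.32 to 3.44), and Cxcr1 had no count.

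The other receptors not tested in the joint comparison also had few counts. Of these, Ccr7 and Ccr10 were tested within females and were not called. Ccr7, the receptor of Ccl19 and Ccl21 on dendritic cells and T cells, had 157 counts over mutants and 63 over controls, and Ccr10 had a ratio of 1.40 (95% counting interval 1.05 to 1.87). Ccr9 had 88 and 70, Ccr4 had 36 and 9, and Ccr6, the receptor of Ccl20, had 22 and 16. Ccr3 and Ccr8 had at most 13 counts over the mutants. For Ccr6, Ccr9, Ccr3 and Ccr8 the counting interval of the ratio included 1. For Ccr4, Ccr7, Ccr10 and Cxcr2 it did not, but these intervals leave out the spread between mice. In the joint edgeR fit with no filter on low counts none of them was called. Adjusted p there was 0.0739 for Ccr4, 0.121 for Ccr7, 0.279 for Ccr10 and 0.342 for Cxcr2.

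With the filter on low counts left out, 49 genes were tested jointly and 25 called, 24 higher, while 11.7% of all 19835 genes with a count were called. The 9 genes that this added were all ligands: Cxcl2, Cxcl5, Cxcl17, Ccl7, Ccl11, Ccl12, Ccl17, Ccl20 and Ccl22. Their fitted fold changes rest on few control counts and depend on the prior count, so counts are given in place of them. Ccl11, Ccl12 and Ccl22 had a count in every control, with control sums of 41, 44 and 46. For the others the control sums were at most 14. Ccl20, which attracts Ccr6-bearing T cells and dendritic cells, had 2, 0, 3, 2 and 0 counts in male controls and 17, 6, 12, 8 and 6 in male mutants. In females Ccl20 had 0, 0, 1, 0 and 0 counts in controls and 25, 24, 16, 0 and 7 in mutants. All mutants but female mutant 4, which had none, had more counts of Ccl20 than any control. The Ccr4 ligands Ccl17 and Ccl22 summed to 191 and 245 counts in mutants against 14 and 46 in controls, and the eosinophil-attracting Ccl11 summed to 154 against 41. Female mutant 4 had no count of Cxcl2, Cxcl17, Ccl12, Ccl17 or Ccl20, and adjusted p for these 9 genes without it lay between 2.11e-09 (Cxcl2) and 0.00402 (Ccl11). The 16 other genes with too few counts were not called: among them Ccl3 and Ccl4, ligands made by macrophages and NK cells, had 128 and 130 counts over mutants against 58 and 69 over controls, Ccl24 had 26 against 9 and Ccl1 had 12 against 1.

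**Figure D3:**
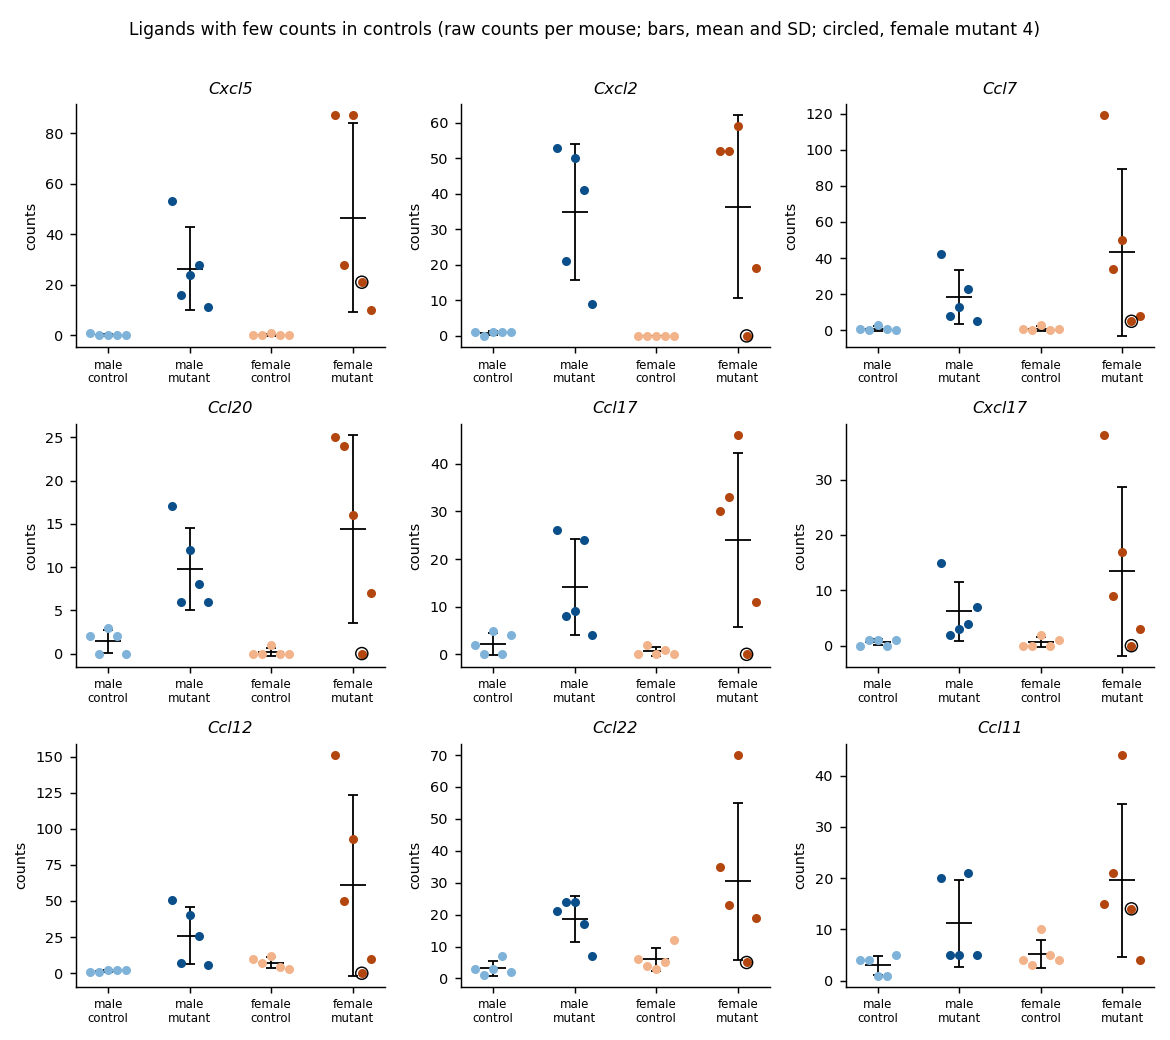
Raw counts per mouse (y axis, linear) of 9 ligands that had too few counts for the joint test, by group, with the mean and SD of 5 mice as bars and female mutant 4 circled. Controls of Cxcl5 and Cxcl2 have 0 or 1 count, and female mutant 4 has 0 for 5 of the 9 genes.

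Set against each other per kilobase of annotated exon, the mean levels differed widely. In controls Cxcl12 had the highest level (28.7 CPM per kb), followed by Cx3cl1 (20.4), Cxcl14 (14.8), Cxcl16 (13.96) and Ccl28 (6.11). In mutants the order was Cx3cl1 (28.5), Cxcl16 (26.9), Cxcl12 (22.2) and Cxcl14 (19.9), and the ligands next to them, Ccl8 (8.57), Ccl6 (8.44) and Cxcl10 (7.22), were at 0.792, 2.68 and 2.53 in controls. The receptors with the highest level were Cx3cr1 (2.13 in controls and 6.10 in mutants), Ccr2 (1.49 and 4.39) and Cxcr4 (1.98 and 2.81). Differences between genes in this order were not tested.

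The genes cluster in the genome (GENCODE M21, GRCm38). With gaps of at most 1000000 bases joined, 10 loci held 39 of the 55 genes and 13 of the 16 called ones. At chr11:82035571-82305690 lie Ccl2, Ccl7, Ccl11, Ccl12, Ccl8 and Ccl1, of which Ccl2 and Ccl8 were tested and rose. At chr11:83525778-83664683 lie Ccl5, Ccl9, Ccl6, Ccl3 and Ccl4, of which the 3 tested rose. Ccr9, Cxcr6, Ccr1, Ccr3 and Ccr2 lie in 1 locus on chromosome 9, where Ccr1 and Ccr2 rose and Cxcr6 was not called. The neutrophil ligands Cxcl5, Cxcl3, Cxcl15, Cxcl1 and Cxcl2 occupy chr5:90759360-90905938, and Cxcl9, Cxcl10 and Cxcl11 occupy chr5:92321347-92365485. Cx3cl1 lies between Ccl22 and Ccl17 at chr8:94745590-94812036. The locus of Ccl27a, Ccl21b, Ccl27b, Ccl19 and Ccl21a at chr4:41769467-42773993 held no called gene.

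The sexes were compared within each genotype, with positive log2 values for higher levels in males. Among controls 4 of 21 tested genes were called, against 17.8% of all genes tested. Ccr1 was lower in male controls (−2.57 ± 0.46 (SE), adjusted p = 0.00124), with all male controls (at most 0.642 CPM) below all female controls (at least 0.982). Its counts were 2, 3, 5, 1 and 10 in male controls and 29, 18, 24, 40 and 24 in female controls. The male values are thus near the floor, and Ccr1 could pass the filter on its female counts alone. Cxcl14 was lower in male controls as well (−0.61 ± 0.13 (SE), adjusted p = 0.00418), again without overlap. Cxcl10 was lower (−0.89 ± 0.16 (SE), adjusted p = 0.00157) and Ccr2 higher (0.54 ± 0.10 (SE), adjusted p = 0.00173) in male controls, both with overlap. The count fell to 1 without female control 1 (Cxcl14) or without male control 4 (Cxcl10), and to 1 (Ccr1) with all 20 mice in 1 fit. Among mutants none of 36 was called by edgeR, against 5.42% of all genes tested; 6 had an unadjusted p under 0.05, and DESeq2 called 1, Cxcr3. In edgeR its log2 difference was −1.30 ± 0.30 (SE), adjusted p = 0.018, lower in male mutants and not called.

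The change from control to mutant was compared between the sexes by an interaction term. None of 37 tested chemokine genes was called by edgeR, against 0% of all 14820 genes tested, and DESeq2 called none of the 37. At an unadjusted p under 0.05 there was 1 of the 37, Ccl28, and 618 of the 14820. The median interaction over the 37 genes was −0.02 on the log2 scale. A gene called in 1 sex and not in the other is thus not shown to respond differently.

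Across the 10 mutants, levels were related to KBW with sex but not litter in the fit, and slopes are log2 CPM per 1 percentage point of KBW. None of 36 tested chemokine genes was called at an adjusted p under 0.01 by edgeR, against 0% of all 14416 genes tested; 21 of the 36 had an unadjusted p under 0.05, as had 3212 of all genes, and DESeq2 called 11 of the 36. At an adjusted p under 0.05 there were 6, among them Cx3cr1 (2.18 ± 0.35 (SE), adjusted p = 0.0271), Ccl2 (3.38 ± 0.69 (SE), adjusted p = 0.0363), Ccl6 (2.59), Ccl5 (2.10) and Ccr2 (2.11). The shares of all genes called by DESeq2, and by edgeR at 0.05, are not given here. The counts of 11 and 6 are therefore not set against a background. The slope was positive for 32 of the 36. KBW was 1.22% to 2.15% in male mutants and 0.836% to 1.46% in female mutants, and female mutant 4 had the lowest. Without that library the slope of Cx3cr1 was 2.03 with an adjusted p of 0.119, and none of the 6 was under 0.05. Without male mutant 5, Cx3cr1 was called.

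**Figure D4:**
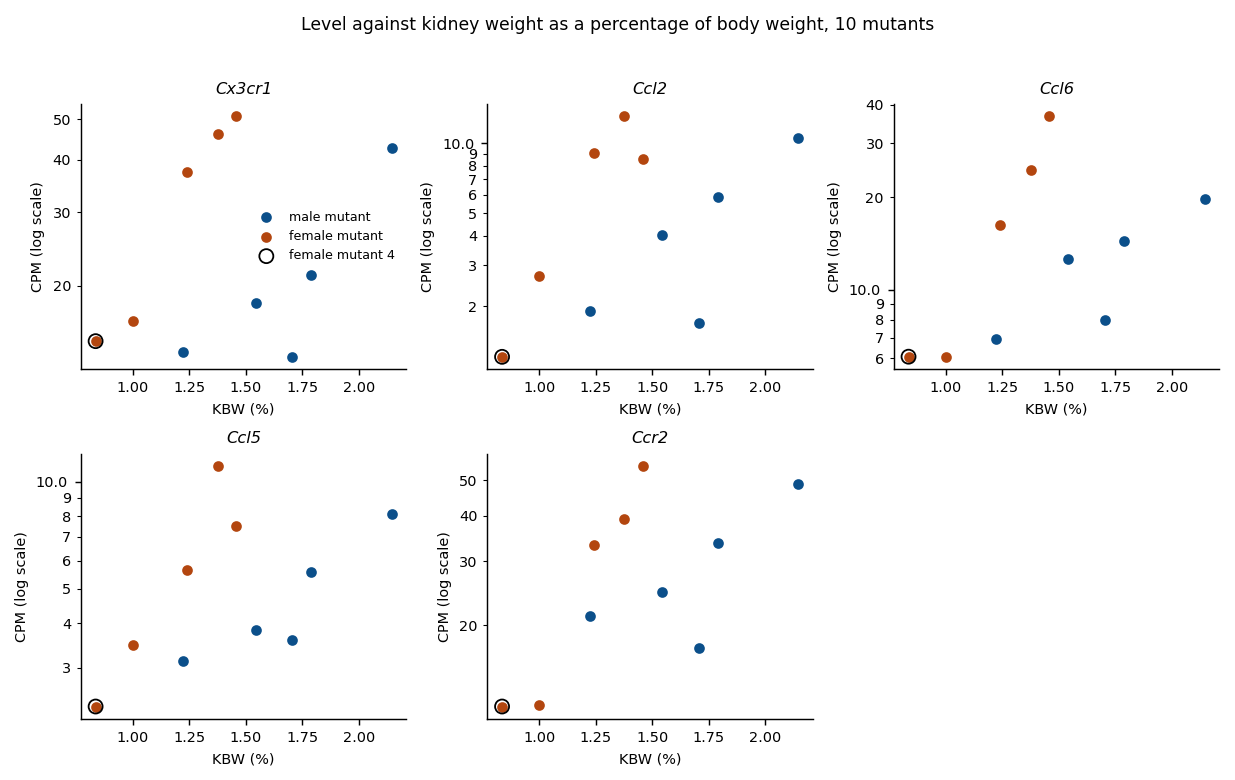
Level in CPM (y axis, log scale) against KBW in percent (x axis) for 5 of the 6 genes with an adjusted p under 0.05 for the slope, 1 point per mutant, males in blue, females in orange and female mutant 4 circled. Near the same KBW, female mutant 2 (1.24%) lies above male mutant 2 (1.22%) in each panel, and female mutants 4 and 5, with the lowest KBW, are among the low values.

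The rise was looked at within litters. In each sex the median difference between mutants and controls over the 24 genes was positive in every litter: 1.11, 1.07 and 0.35 on the log2 scale in males of litters A, B and C, and 1.25, 1.04 and 0.43 in females. The 16 called genes kept their joint direction in litters A and B of both sexes. Because these genes were called on the same mice, the agreement is a description and not separate support. Females of litter A were 1 mutant and 1 control, and males of litter B included 1 control. In litter C, which held 1 mutant and 1 control of each sex, 15 of 16 did in males (not Ccl8) and 14 of 16 in females (not Cx3cl1 and Cxcl12). Without litter C, 18 of 27 genes were called jointly, with Ccl12 and Cxcl5 added. The share of all genes called in that fit is not given here. The count without litter C is therefore not set against a background, and its difference from the count with all mice is not interpreted.

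**Figure D5:**
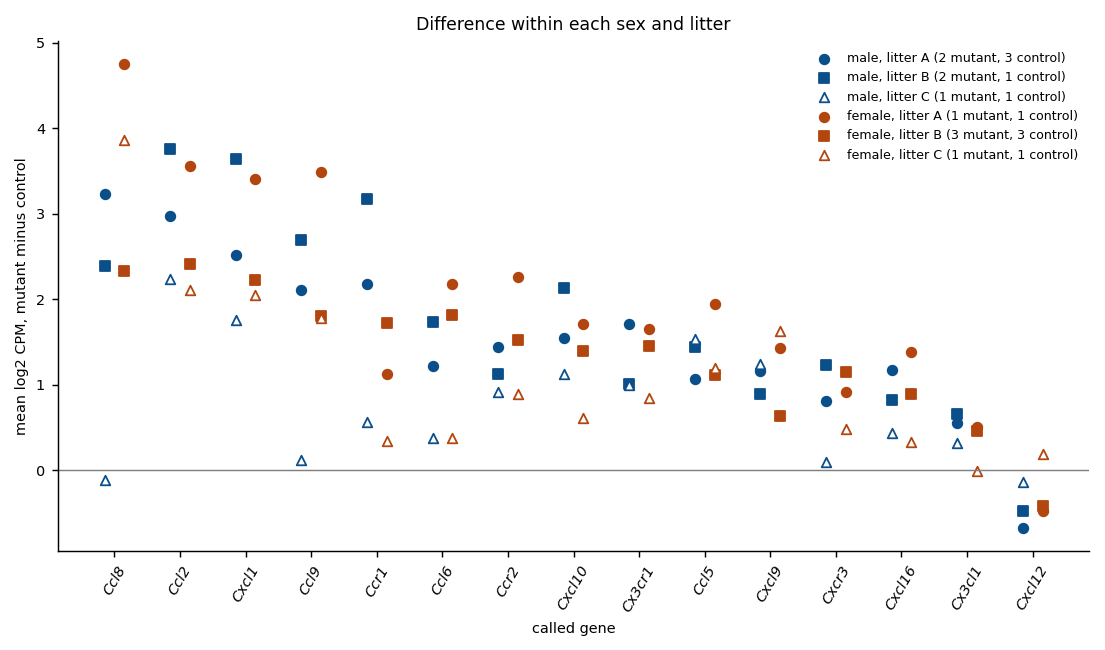
Mean log2 CPM of mutants minus that of controls (y axis) within each sex and litter for 15 of the 16 called genes (x axis, by joint log2 fold change), males in blue and females in orange, with litter C as open triangles. Points of litter C lie lowest for most genes, and 3 of them are on the other side of 0 from the joint value.

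Markers of the cells that make or carry chemokines were set beside these results. With all mice, macrophage and monocyte markers rose broadly, whereas each of the other leukocyte lists had at most 2 called markers. Those lists had fewer tested markers. The unadjusted edgeR p was under 0.05 for 5 of 7 T cell and 3 of 4 B and plasma cell markers. It was so for 12 of 12 macrophage and monocyte markers and 2 of 6 dendritic cell markers. A rise confined to macrophages and monocytes is thus not shown. The part of these cells in the chemokine results was not tested. Values in parentheses are joint log2 fold changes. Of 12 macrophage and monocyte markers, 11 rose in the joint comparison, led by Lyz2 (2.49), Itgam (2.36) and Fcgr1 (2.04), and their summed level was 140.2 to 173 CPM in male controls, 259 to 755 in male mutants, 180.2 to 229 in female controls and 217 to 1032 in female mutants. Female mutant 4 had the lowest of the mutant sums. Of the 3 neutrophil markers tested, 0 were called by edgeR and 1 had an unadjusted p under 0.05, and without female mutant 4, whose neutrophil sum was 0, 1 rose: Csf3r, the receptor of granulocyte colony-stimulating factor (1.13, adjusted p = 0.00329). Mpo was at 0 in every library, and the summed neutrophil level was 1.93 to 3.05 CPM in male controls, 1.98 to 6.17 in male mutants, 2.83 to 3.44 in female controls and 0 to 9.40 in female mutants. Of 7 tested T cell markers 1 rose, the kinase gene Lck (0.87 ± 0.23 (SE), adjusted p = 0.00901), with sums of 5.46 to 14.6 CPM in controls and 6.24 to 29.7 in mutants. Without female mutant 4, 4 of the 7 rose, with Cd3d, Cd4 and Cd2 added. Of 6 dendritic cell markers 2 rose, Itgax (1.74) and Cd209a (1.22). In the NK cell list 0 of 2 tested markers were called by edgeR, both with an unadjusted p under 0.05, and in the B and plasma cell list 1 of 4, the joining chain gene Jchain (1.05). Without female mutant 4 these counts were 1 of 2, with Nkg7 (adjusted p = 0.00494), and 2 of 4, with Cd79a added (0.0081). The macrophage and dendritic cell counts were 11 and 2 without it as well.

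Among the resident cells, with joint log2 fold changes in parentheses, all 7 markers of injured tubule rose, led by Havcr1, which encodes the injury protein KIM-1 (6.33), Lcn2 (4.60) and Vcam1 (2.54). All 5 markers of the loop and distal tubule fell, with Pvalb (−1.26), Calb1 (−1.14) and Slc12a3 (−1.11) changing most, and 3 of 6 collecting duct markers fell, led by Slc4a1 (−1.26). None of 6 proximal tubule or 6 blood endothelial markers was called by edgeR, and 3 and 5 of them had an unadjusted p under 0.05. Without female mutant 4, 1 proximal tubule marker, Slc5a2, was called lower (adjusted p = 0.00767) and 1 blood endothelial marker, Pecam1, higher (0.00373). In the fibroblast list 4 of 8 rose, with Col3a1 (2.20), Col1a1 (2.05) and Acta2 (1.25) first, and 6 of 8 rose without female mutant 4, with Pdgfrb and Postn added. In the injured tubule, loop and distal tubule, collecting duct, lymphatic endothelial, lymph node, adrenal and adipose lists, leaving out this library did not change the counts. Of 5 tested lymphatic endothelial markers 1 rose, Pdpn (1.67), and the one tested lymph node marker, Cr2, fell (−0.66), while Glycam1 and Madcam1 had too few counts. Adrenal and adipose markers were not called (0 of 1 and 0 of 2 tested, also at an unadjusted p under 0.05), and the adipose sum ran from 0.339 to 424 CPM, the highest in a female mutant.

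Other genes of the pathway were taken from lists, again with joint log2 fold changes in parentheses. Of 9 tested genes of the wider chemokine system 3 rose: Pf4, the platelet chemokine (1.85 ± 0.37 (SE), adjusted p = 0.0011), Cd74, a receptor of the chemokine-like factor MIF (1.34 ± 0.21 (SE), adjusted p = 0.00012), and Rarres2, which encodes the leukocyte attractant chemerin (0.55 ± 0.12 (SE), adjusted p = 0.0027). The scavenger receptor Ackr3, which removes Cxcl12, was not called (0.12 ± 0.14 (SE), adjusted p = 0.58), and Ackr1, Ackr2 and Ackr4 had too few counts. Of 16 genes that act below the receptors 10 rose and none fell, led by Pik3r5 (1.39), Dock2 (1.27) and Rac2 (1.26), all leukocyte genes. Of 11 tested cytokine, NF-kB and interferon genes known to switch chemokines on, 9 rose, with Il1b (1.07), Relb (1.01) and Tnfaip3 (0.74) first. Tnf, Il6 and Ifng had too few counts, and Il17a and Ifnb1 were at 0 in every library. These counts stand beside the 15.9% of all genes that were called, and they were made on the same mice as the chemokine values. Without female mutant 4 the counts of these 3 lists were 3, 11 and 9.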

How the data were processed

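Kidney RNA was sequenced by the authors on a NovaSeq S4, and raw counts per gene were deposited for 20 mice. The submitters' processing notes name fastp 0.23.2, STAR 2.7.10b and the build mm10. The counting tool, gene annotation and strand setting were not given in the sources used here.

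Deposited counts were analysed in R 4.3.3. The filterByExpr function removed genes with few counts, libraries were scaled by TMM, and the quasi-likelihood test of edgeR 4.0.16 was run within males, within females and on all mice, with litter (and sex in the joint fit) as covariates. The interaction of sex with genotype, the sexes within each genotype, and KBW among mutants with sex as covariate were fitted likewise. P-values were adjusted by Benjamini-Hochberg over all genes tested and called under 0.01. Log2 CPM used a prior count of 2. Low counts were summed and compared with 95% intervals, which cover counting error only. Scripts were tested on simulated data.

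Values in every mouse are given for genes called in any comparison with a group mean of at least 1 CPM, and for the 2 uncalled genes with the highest level in CC ligands, in CXC and CX3C ligands and in receptors. From each list, the called genes with the 3 largest joint changes are named. The members and lists were chosen with earlier results of these data known. Other normalizations, filters, thresholds, covariates, DESeq2 1.42.0 and leaving out each mouse were tried as alternatives, and leaving out litter C was added after seeing the data. P-values measure the spread between single mice. Of 40 pairs of libraries within groups none agreed within sampling noise. The values of 1 gene of the family are not reported here, although the counts over the family include it.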

Additional observations from a re-analysis of the deposited data

Results flagged for a closer look

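Gaps and ranges were taken in log2 CPM, and the levels below are in CPM. In groups of 5 mice, a mouse was singled out where its gap to the nearest other mouse, over the range of the group, exceeded Dixon's 95% critical value. This held for 6 of 96 groups, and chance gives about 1 in 20. Ccl19 stood at 2.17 CPM in female mutant 4, against 3.48 to 4.18 in the other female mutants. Cxcr4 stood at 0.693 CPM in the same library, against 5.83 to 6.90. Ccl28 stood at 28.8 CPM in male control 5, against 16.9 to 18.8 in the other male controls, and at 54.2 in male mutant 4, against 19.5 to 23.6 in the other male mutants. Ccl8 stood at 0.827 CPM in female control 3, against 0.0545 to 0.119 in the other female controls. Cxcl16 stood at 34.9 CPM in male control 2, against 39.7 to 41.2 in the other male controls.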

How the results depend on the processing

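Over 30 gene results and their alternatives, 671 values were computed: 593 kept direction and call, 78 kept direction and lost the call, and 0 reversed. The counts below are given without the share of all genes called at the same setting. They describe the settings and are not results about the chemokine genes alone. The count of chemokine genes called in males (9) was 14 at an adjusted p under 0.05, 14 with DESeq2 and 20 without a filter on low counts. In females (1) it was 13 at 0.05, 14 with DESeq2, 7 without the filter and 10 with all 20 mice in 1 fit. In the joint comparison (16) it was 25 without the filter and 10 with at least 10 counts in every mouse, where 16 genes were tested. Among controls of both sexes (4) it was 9 at 0.05, 2 without the litter term and 1 with all 20 mice. Among mutants of both sexes (0) it was 1 at 0.05, 1 with DESeq2, 1 with at least 10 counts in every mouse and 2 with all 20 mice. For KBW (0) it was 6 at 0.05 and 11 with DESeq2. Leaving out single mice gave 3 to 16 in males, 0 to 16 in females, 13 to 18 jointly, 1 to 5 among controls, 0 to 1 among mutants, 0 to 1 for KBW and 0 to 0 for the interaction. The joint count was lowest without male mutant 1 and highest without female mutant 4, and the mutant count was 1 without female mutant 3. The number of genes tested changed with the filter, but some genes tested in both fits were called only without it. In males these included Ccl6 and Ccl9 (edgeR adjusted p = 0.00313 and 0.00362 without the filter). In females they included Ccl2 and Ccr2 (0.00577 and 0.00976). The cause of the changes was not tested for any setting. Without the litter term the female count was again 1, but the gene was Cxcl1, and without litter C it was Cxcl5. No paired analysis was possible because the labels carry no replicate numbers that pair mice across groups, and litter was already a covariate. In 25 genes, counts were too few for the joint test at this depth.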
